A study of Mus musculus with 6 samples.

Results

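Epithelial cells fill their cytoplasm with keratin filaments, and the RNA of 9 keratin genes was compared in dental epithelial organoids (DEOs) grown in 4 media. The 9 genes were taken by symbol from the table of expression values, in which 51 keratin genes are listed among 47360 gene symbols. Krt5, Krt14 and Krt15 formed the basal set of 3, and Krt6a, Krt6b, Krt16, Krt17, Krt75 and Krt42 formed the set of 6 stress and companion layer keratins. The sets were defined by gene name, but with earlier results of these data known.

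The DEOs were grown from wild-type dental epithelial cells of the apical bud of the incisor of 9-week-old female C57BL/6J mice, embedded in Matrigel, and were cultured for 14 days. Every medium contained Wnt3a-conditioned medium at 50%, R-spondin1-conditioned medium at 5%, EGF at 100 µg per ml, Noggin at 200 µg per ml, N-acetylcysteine and the ROCK inhibitor Y27632 at 10 µM. The +N medium had no other factor, the +ND medium also had DBZ, the +NF medium had FGF10 at 100 µg per ml, and the +NFD medium had both. DBZ (dibenzazepine) blocks the γ-secretase cleavage that activates Notch receptors, and its dose is 10 µM in the labels, whereas the methods text prints the unit as mM. Wnt3a, R-spondin1, EGF, Noggin and Y27632 were thus present in the control medium as well, so each comparison is of DBZ or FGF10 on that background. The other 2 media in the labels, +NJ and +NFJ, were not analysed here. Each medium had 1 library, so no difference below has a replicate check, no p-value is given, and whether neighbouring levels differ beyond the spread between cultures cannot be told.

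Keratins are obligate heteropolymers in which a type I chain pairs with a type II chain. In stratified epithelia the basal cells make Krt5 (type II) with Krt14 (type I), and Krt15 is a further type I keratin of basal and follicle stem cells. Krt6a and Krt6b (type II) and their partners Krt16 and Krt17 (type I) are scarce in resting epidermis, are induced by wounding, inflammation and hyperproliferation, and are made constitutively in the hair follicle, the nail and the oral epithelium. Krt75 (type II) is a keratin of the companion layer of the hair follicle, and Krt42 (type I) is a keratin of the mouse nail unit.

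On GRCm38 the 5 type I genes lie together on chromosome 11 and the 4 type II genes on chromosome 15, all on the minus strand. Krt14 is at chr11:100203162-100207548, Krt15 at chr11:100131758-100135928, Krt16 at chr11:100246091-100248902, Krt17 at chr11:100256217-100261029 and Krt42 at chr11:100262882-100269871. Krt5 is at chr15:101707070-101712891, Krt6a at chr15:101689932-101694307, Krt6b at chr15:101676034-101680289 and Krt75 at chr15:101563345-101573904. Several of these genes are near copies of each other, which bears on how far their values can be separated. The coding sequences of Krt6a and Krt6b were 97.8% identical, and 47.5% of the windows of 100 bases in the Krt6a transcript, and 30.6% of those in the Krt6b transcript, also occur in the transcript of another gene. Their most different stretch of 60 coding bases, both in exon 4, is shown because only such places assign a fragment to one gene or the other, with the 10 bases that differ in capitals. The Krt6a stretch is at chr15:101692484-101692543 and the Krt6b stretch at chr15:101678303-101678362, both read 5′ to 3′ on the minus strand from GENCODE M21 transcripts.
Krt6a: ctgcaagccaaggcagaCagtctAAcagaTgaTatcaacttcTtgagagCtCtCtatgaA
Krt6b: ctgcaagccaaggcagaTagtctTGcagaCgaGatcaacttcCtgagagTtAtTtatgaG

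Krt16 shared 24.3% of its windows of 100 bases with other genes, mainly the predicted gene Gm11597, which was at most 0.0617 FPKM in the 4 libraries, and Krt14, whose coding sequence was 86.2% identical. FPKM is the number of fragments scaled to the length of the transcript and to the size of the library. The longest run that Krt14 and Krt16 have in common, 134 coding bases of exon 1 at chr11:100207017-100207150 in Krt14 and at chr11:100248476-100248609 in Krt16, is shown because Krt14 was between 1.90 and 25.8 times as abundant as Krt16. It is printed in lower case throughout, since no base in it differs.
Krt14 and Krt16: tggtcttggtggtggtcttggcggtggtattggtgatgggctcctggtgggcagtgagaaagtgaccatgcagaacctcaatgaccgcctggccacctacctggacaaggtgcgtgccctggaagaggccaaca

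The other 6 members were better separated. Krt5 shared 3.81% of its windows of 100 bases with other genes, Krt14 2.88% and Krt75 0.947%, and Krt15, Krt17 and Krt42 shared 0 of them. Windows of 50 bases gave larger shares, at 12.2% for Krt5, 14.4% for Krt14, 3.99% for Krt17 and 2.49% for Krt75. With these shorter windows, Krt15 was at 0.666% and Krt42 at 0.268%, beside 62.0% for Krt6a, 50.1% for Krt6b and 37.6% for Krt16. Krt17 and Krt42 are neighbours on chromosome 11 with 79.0% identical coding sequences. They are shown over 60 bases of exon 1, with the 30 bases that differ in capitals. The reason is that, with 1 added to each FPKM, each was the keratin nearest to the other in course across the media (described after the comparisons). The Krt17 stretch is at chr11:100260739-100260798 and the Krt42 stretch at chr11:100269615-100269674, minus strand, from the same transcripts.
Krt17: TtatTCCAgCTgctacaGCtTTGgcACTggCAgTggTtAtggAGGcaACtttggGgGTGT
Krt42: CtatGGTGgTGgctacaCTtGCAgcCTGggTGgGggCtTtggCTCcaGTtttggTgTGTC

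The libraries held 19606 to 20450 genes with a value above 0, of which 12529 to 12959 were at 1 FPKM or more. Depth was not stated, and the steps between low values placed +ND at roughly 0.775 times the depth of +N, with +NF at 1.00 and +NFD at 0.993 times. In bulk RNA, fewer cells of a type and less RNA per cell cannot be told apart. All 6 epithelial markers, such as Epcam and Cdh1, were at an FPKM of at least 1 in every library, and their summed level was 957 in +N and 619 in +ND, and 848 in +NF and 596 in +NFD. Of these, 4 were lower and 2, Esrp1 and Trp63, were higher in +ND than in +N. The same held for +NFD and +NF. The summed level of 8 fibroblast markers was 153, 129, 94.6 and 378 FPKM in the same order, highest in +NFD, and that of 8 macrophage markers was 664, 550, 469 and 420. Most of the macrophage sum was Lyz2, at 528, 408, 373 and 288 FPKM. Of the macrophage markers, 4 were higher and 4 lower in +ND than in +N. Between +NFD and +NF, 7 could be compared, of which 6 were higher and 1 lower in +NFD. None of the 5 endothelial or 4 melanocyte markers reached an FPKM of 1 in any library. The part of the fibroblast and macrophage RNA in the keratin values was not tested.

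FPKM is scaled to transcript length, so levels may be set side by side between genes. The 9 keratins spanned 4 orders of magnitude. Together they made up 97.4% of all keratin FPKM in +N and 98.3% in +ND, and 98.1% in +NF and 99.0% in +NFD. Krt14 and Krt5 were the 2 highest keratins in every library. Krt6a, Krt6b, Krt16 and Krt17 took the places from 3 to 6 among the keratins in each library, in a different order in each, while Krt15, Krt75 and Krt42 were never above place 13.

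**Figure D1:**
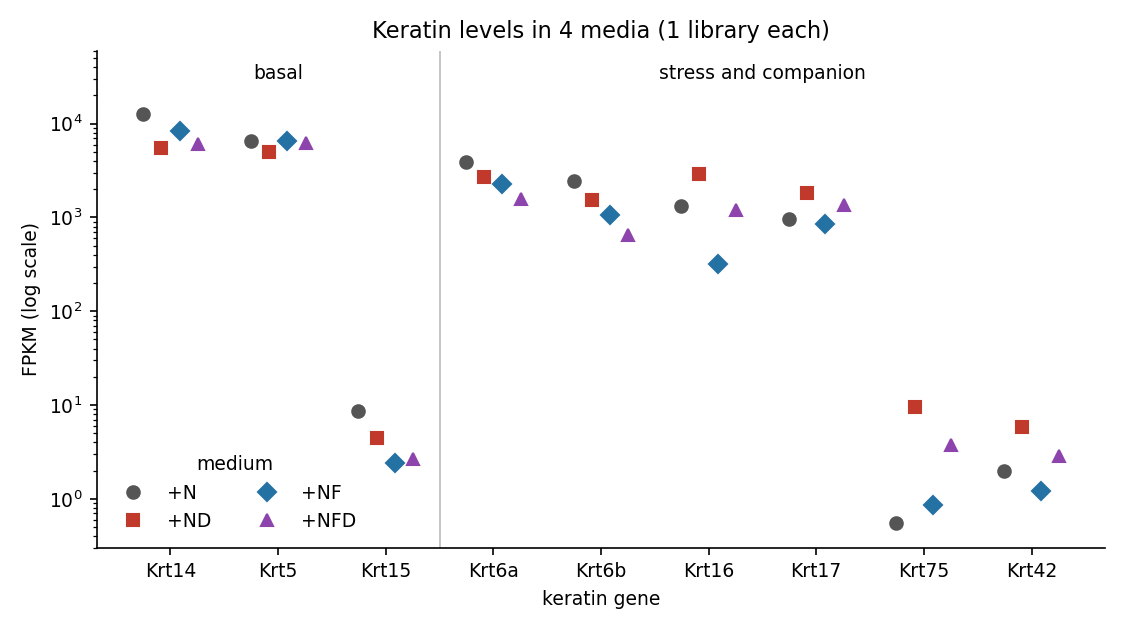
FPKM on a log scale of each of the 9 keratin genes in +N, +ND, +NF and +NFD, with 1 point per library and no error bar. Krt5 moved least, from 4984 to 6582 FPKM, and Krt75 most, from 0.548 to 9.47 FPKM.

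Among the basal keratins, Krt5 varied least of all 9 members. Its level was 6582 FPKM in +N and 4984 in +ND, and 6535 in +NF and 6177 in +NFD, so that +ND was the lowest and the other 3 libraries lay close together, with 1.32-fold between the highest and the lowest. Gm44323, an entry of 129 bases on the plus strand at chr15:101710274-101710402 inside coding exon 5 of Krt5, was listed at 22562, 14477, 18616 and 19435 FPKM in the same order. The strand setting of the counting was not stated, so the RNA of this entry and that of Krt5 cannot be told apart.

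Krt14, the type I partner of Krt5, was at 12652 FPKM in +N and 5530 in +ND, and 8295 in +NF and 6090 in +NFD. It was highest in +N, and the pair of libraries with DBZ was lowest. Krt15 was more than 1000 times lower, at 8.62 FPKM in +N and 4.48 in +ND, and 2.39 in +NF and 2.65 in +NFD, which corresponds to roughly 417, 168, 116 and 127 fragments. Unlike Krt14, Krt15 was lowest in the pair of libraries with FGF10. All 3 basal keratins had their highest level in +N, while Krt5 and Krt14 put the other media in one order (+NF, +NFD, +ND) and Krt15 in the reverse.

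Among the type II stress keratins, Krt6a was at 3943 FPKM in +N and 2731 in +ND, and 2270 in +NF and 1584 in +NFD. The corresponding levels of Krt6b were 2462, 1525, 1073 and 648 FPKM. Both were highest in the control medium, lower with either factor and lowest with both, and the ratio of Krt6a to Krt6b was 1.60, 1.79, 2.11 and 2.44. Given the shared sequence, how fragments were divided between Krt6a and Krt6b is uncertain. Short entries on the plus strand inside exon 5 of these genes, Gm44342 in Krt6a and Gm44383 in Krt6b, were listed at 0 in all 4 libraries and at 189 FPKM in +N with 0 elsewhere, respectively.

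The type I stress keratins followed another order. Krt16 was at 1321 FPKM in +N and 2909 in +ND, and 321 in +NF and 1193 in +NFD, 9.06-fold between +ND and +NF. Krt17 was at 954, 1822, 862 and 1358 FPKM, 2.11-fold between the highest and the lowest. Both were highest in +ND and lowest in +NF, but Krt17 had the 2 libraries with DBZ on top, whereas Krt16 was higher in +N than in +NFD. Krt16 was more abundant than Krt17 in +N and +ND, with ratios of 1.39 and 1.60, and less abundant in +NF and +NFD, with ratios of 0.372 and 0.879.

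The 2 scarce members of the stress set had the same medium on top. Krt75 was at 0.548 FPKM in +N and 9.47 in +ND, and 0.849 in +NF and 3.76 in +NFD, or roughly 51, 682, 79 and 347 fragments. Krt42 was at 2.00, 5.80, 1.22 and 2.84 FPKM, or roughly 88, 197, 54 and 124 fragments. Both libraries with DBZ lay above both libraries without it for each gene. Gm44460, a short entry on the plus strand in exon 5 of Krt75, was listed at 86.1 FPKM in +ND and at 0 in the others, and adding it by its length brought Krt75 in +ND to 12.9 FPKM.

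The next comparisons asked how each factor altered these levels, as the log2 of the ratio of FPKM + 1 in the first medium to FPKM + 1 in the second. Genes had to reach 1 FPKM in whichever library was higher, and a ratio of at least 2-fold was taken as the limit. The added 1 understates ratios of the low genes Krt15, Krt75 and Krt42. Comparisons that have a library in common are not independent of each other. The ratios over all genes were centred slightly above 0, with medians between 0.05 and 0.18. Centring on the median left the counts of members past the limit as they were but turned the split over all genes, from 774 higher and 697 lower to 615 and 842 in +ND against +N, from 361 and 319 to 248 and 412 in +NF against +N, from 450 and 414 to 345 and 506 in +NFD against +ND, and from 782 and 538 to 540 and 714 in +NFD against +N.

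DBZ without FGF10 (+ND against +N) went with a lower level of the basal keratins and of Krt6a and Krt6b, and with a higher level of Krt16, Krt17, Krt75 and Krt42. Past the limit, 3 of 9 members were higher, where 5.88% of all 13173 genes were, and 1 of 9 was lower, where 5.29% of all genes were. Krt75 had a log2 ratio of 2.76, Krt42 of 1.18 and Krt16 of 1.14, while Krt17 was just inside the limit at 0.93. Krt14 had a log2 ratio of -1.19, and Krt15, Krt6b, Krt6a and Krt5 were inside the limit at -0.81, -0.69, -0.53 and -0.40. The median log2 ratio was -0.81 over the basal set and 1.04 over the stress set, beside 0.10 over all genes tested.

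DBZ with FGF10 (+NFD against +NF) had the same 4 stress keratins on the higher side, with smaller ratios for all of them but Krt16. Of 9 members, 2 were at least 2-fold higher, against 3.72% of all 13349 genes, and 0 were at least 2-fold lower, against 2.69%. Krt16 had a log2 ratio of 1.89 and Krt75 of 1.36, with Krt42 at 0.79 and Krt17 at 0.65 inside the limit. The ratios of Krt6b and Krt6a, at -0.73 and -0.52, were close to those without FGF10. Krt14 was at -0.45, Krt5 at -0.08 and Krt15 at 0.11, all inside the limit and nearer to 0 than without FGF10. The median was -0.08 over the basal set and 0.72 over the stress set, beside 0.05 over all genes.

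FGF10 without DBZ (+NF against +N) went with a lower value for every member that could be compared, though Krt5 was almost unchanged. Krt75 was under 1 FPKM in both libraries and was left out, which leaves 8 members. Its low value was 1.55 times as high in +NF as in +N, the other direction. Of these, 3 were at least 2-fold lower, where 2.44% of all 13090 genes were, and 0 were at least 2-fold higher, where 2.76% were. Krt16 had a log2 ratio of -2.04, Krt15 of -1.50 and Krt6b of -1.20. Krt6a at -0.80, Krt14 at -0.61, Krt42 at -0.43, Krt17 at -0.15 and Krt5 at -0.01 were inside the limit. The medians of the basal and stress sets were -0.61 and -0.80, beside 0.12 over all genes.

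FGF10 in the presence of DBZ (+NFD against +ND) had all 6 stress keratins on the lower side, but Krt5 and Krt14 on the higher side, inside the limit. Of 9 members, 3 were at least 2-fold lower, where 3.11% of all 13293 genes were, and 0 were at least 2-fold higher, where 3.39% were. The log2 ratio was -1.29 for Krt16, -1.23 for Krt6b and -1.14 for Krt75. Inside the limit were Krt42 at -0.82, Krt6a at -0.79, Krt15 at -0.59, Krt17 at -0.42, Krt14 at 0.14 and Krt5 at 0.31. The median was 0.14 over the basal set and -0.98 over the stress set, beside 0.09 over all genes.

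With both factors (+NFD against +N), the stress keratins lay on both sides of their level in +N. Of 9 members, 1 was at least 2-fold higher, where 5.85% of all 13358 genes were, and 4 were at least 2-fold lower, where 4.03% were. The higher gene was Krt75, with a log2 ratio of 1.62, and the lower genes were Krt6b at -1.92, Krt15 at -1.40, Krt6a at -1.32 and Krt14 at -1.05. Inside the limit, Krt17 was at 0.51, Krt42 at 0.35, Krt5 at -0.09 and Krt16 at -0.15. The median was -1.05 over the basal set and 0.10 over the stress set, beside 0.18 over all genes.

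**Figure D2:**
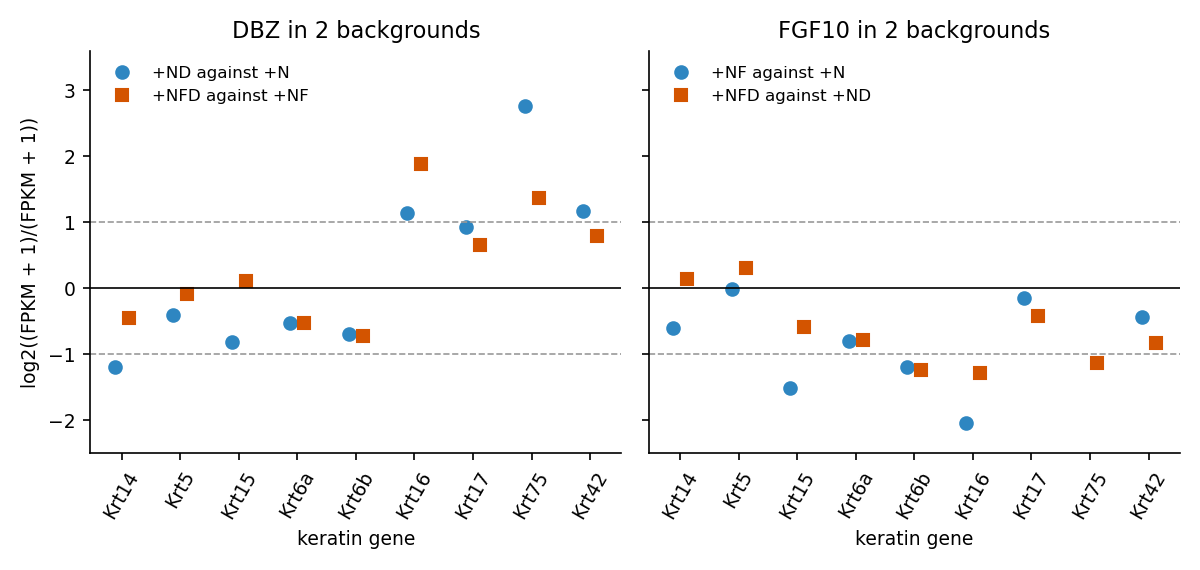
The log2 ratio of each keratin for DBZ (left, without and with FGF10) and for FGF10 (right, without and with DBZ), 1 point per gene and comparison, with dashed lines at 2-fold; Krt75 has no point in +NF against +N. Krt16, Krt17, Krt75 and Krt42 were above 0 in both DBZ comparisons, up to 2.76, and Krt6a and Krt6b were below 0 in all 4.

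The log2 ratio for DBZ differed little between the media without and with FGF10 for some members and more for others. The ratio with FGF10 minus the ratio without was 0.01 for Krt6a and -0.04 for Krt6b. It was 0.32 for Krt5, 0.75 for Krt14, 0.75 for Krt16 and 0.92 for Krt15, and -0.28 for Krt17, -0.39 for Krt42 and -1.39 for Krt75. Over 13748 genes the median of this difference was -0.02 and its range from the 5th to the 95th percentile was -0.94 to 0.89, so that 2 of the 9 members lay outside that range, Krt75 below it and Krt15 just above it.

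A ratio within a library does not depend on the scaling between libraries. The summed FPKM of the 3 basal keratins was 19243 in +N and 10518 in +ND, and 14833 in +NF and 12269 in +NFD. The summed FPKM of the 6 stress and companion keratins was 8683, 9003, 4529 and 4789 in the same order. The stress keratins were thus similar in +N and +ND while the basal sum was lower in +ND, and they made up 31.1%, 46.1%, 23.4% and 28.1% of the 9 keratins. The stress-to-basal ratio was 0.451 in +N and 0.856 in +ND, and 0.305 in +NF and 0.390 in +NFD. With DBZ it was 1.90 times as high without FGF10 and 1.28 times as high with FGF10, and with FGF10 it was 0.677 times as high without DBZ and 0.456 times as high with DBZ. On the log2 scale these differences were 0.92, 0.35, -0.56 and -1.13. The sums are carried by 6 genes, and the ratio moved with the choice of genes. The +ND to +N difference was 1.60 on the log2 scale when each of the 9 genes counted equally and 1.93 without Krt6a and Krt6b, but 0.60 without Krt16 and 0.45 without Krt14. The +NFD to +NF difference was 1.38 without Krt6a and Krt6b and 0.72 with each gene counted equally, but 0.18 without Krt17 and Krt42, 0.16 without Krt14 and 0.05 without Krt16. The +NF to +N difference was -0.02 with each gene counted equally and -0.93 without Krt14. The +NFD to +ND difference stayed between -0.90 and -1.29 under these choices. Without Krt14, which alone made up most of the basal sum in +N, the stress set was above the basal set in +N, with a log2 ratio of 0.40 in place of -1.15.

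**Figure D3:**
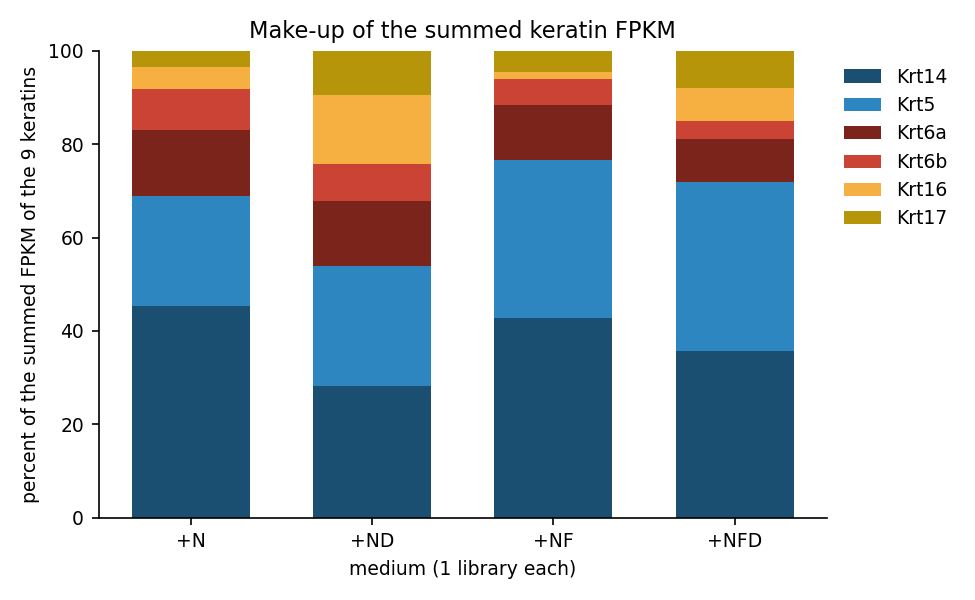
Stacked bars of the share of the summed FPKM of the 9 keratins held by Krt14, Krt5, Krt6a, Krt6b, Krt16 and Krt17, in percent, 1 bar per library. Krt15, Krt75 and Krt42 are too small to be drawn, and the stress keratins held 46.1% in +ND against 23.4% to 31.1% in the other libraries.

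Because filaments need a type I and a type II chain, the partners were compared within each library. Summed over the members, type II to type I FPKM stayed near 1, at 0.869 in +N and 0.900 in +ND, and 1.04 in +NF and 0.973 in +NFD. The individual pairs were less even. Krt5 to Krt14 was 0.520, 0.901, 0.788 and 1.01, lowest in +N. Krt6a and Krt6b to Krt16 and Krt17 was 2.82 in +N and 2.83 in +NF, and 0.900 in +ND and 0.875 in +NFD. This ratio of sums separated the libraries without DBZ from those with it and was almost the same with and without FGF10. The evenness with FGF10 holds for the sum of Krt16 and Krt17 and not for each partner. In +NF against +N, the log2 ratio was -2.04 for Krt16 and -0.15 for Krt17, with Krt6b at -1.20 and Krt6a at -0.80 between them. In +NFD against +ND, it was -1.29 for Krt16 and -0.42 for Krt17, with Krt6b at -1.23 and Krt6a at -0.79 between them. Krt16 and Krt17 held 15.2% of the type I sum in +N and 46.1% in +ND, and 12.5% in +NF and 29.5% in +NFD. Krt6a and Krt6b held 49.3%, 46.0%, 33.8% and 26.5% of the type II sum, lower with FGF10. The share of stress keratins in the type I sum was thus highest with DBZ, while that in the type II sum was lowest with FGF10 and DBZ together.

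**Figure D4:**
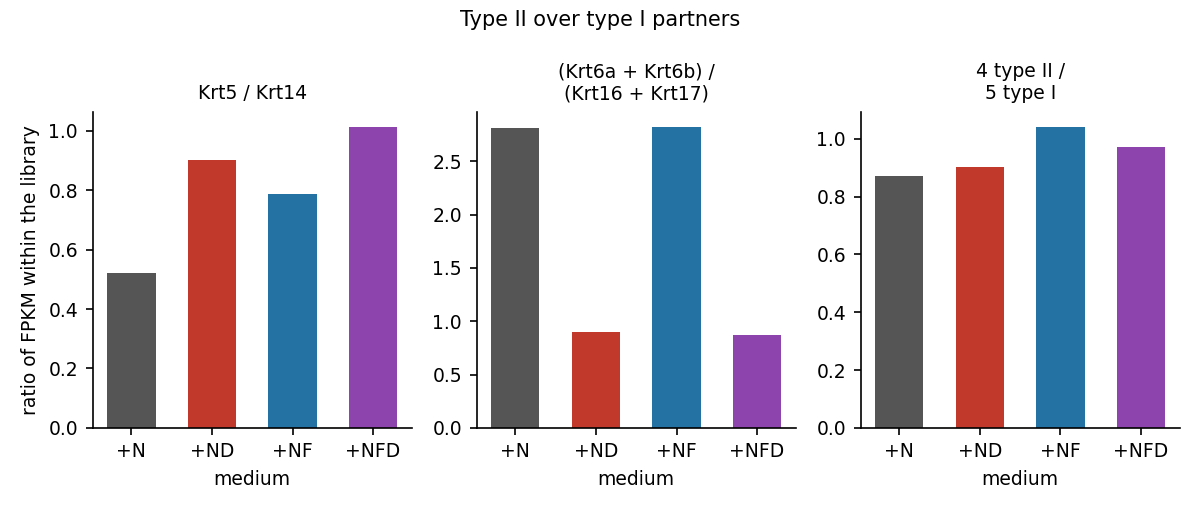
Bars from 0 of the ratio of type II to type I FPKM within each library, for Krt5 over Krt14, for Krt6a and Krt6b over Krt16 and Krt17, and for the 4 type II over the 5 type I members. The middle ratio was 2.82 and 2.83 without DBZ and 0.900 and 0.875 with it, while the sum ratio lay between 0.869 and 1.04.

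Likeness of course across the media was measured as the root mean square difference of log2(FPKM + 1), centred over the 4 libraries, where 0 is the same course. The added 1 flattens the course of low genes such as Krt15, Krt42, Krt78 and Krt84, so their likeness to abundant keratins depends on it. Between the highest and the lowest library, FPKM differed 4.74-fold for Krt42 and 2.11-fold for Krt17. Among the 22 keratins that could be compared, the nearest to Krt6a was Krt6b, at 0.232, and the nearest to Krt17 was Krt42, at 0.199. Krt5 and Krt14 were both nearest to Krt84, a low hair keratin, at 0.229 and 0.198, and Krt15 was nearest to Krt6a, at 0.274. Krt16 and Krt75 were both nearest to the suprabasal keratin Krt78, at 0.482 and 0.397, which was at 0.673 FPKM in +N and 5.39 in +ND, and 0.0392 in +NF and 1.65 in +NFD.

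Among 10466 genes at an FPKM of at least 5 in a library, the nearest to Krt14 were Bhlhe40, a basic helix-loop-helix repressor, Hes1, a Notch target gene, and Mettl20, at 0.0196, 0.0495 and 0.0495. Bhlhe40 was at 257 FPKM in +N and 109 in +ND, and 162 in +NF and 120 in +NFD, and Hes1 at 157, 74.6, 109 and 80.1. The nearest to Krt6a were Tmprss11b, a transmembrane serine protease, Hbegf, an EGF receptor ligand, and Palmd, at 0.0206, 0.0278 and 0.0797. Hbegf was at 47.6, 33.8, 28.6 and 19.2 FPKM. The nearest to Krt17 were Alas1, the first enzyme of heme synthesis, the sulfite oxidase Suox, and Lbhd1, at 0.0415, 0.0464 and 0.0533. Alas1 was at 65.6, 118, 58.5 and 94.8 FPKM. With 4 points per gene and so many genes, close matches are frequent, and they describe these libraries only.

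The hair follicle keratins were examined because Krt75, Krt6a, Krt16 and Krt17 are also follicle keratins. Of the 22 inner root sheath and hair shaft keratins in the table, 21 were under an FPKM of 1 in every library. The other was Krt84, at 2.29 FPKM in +N and 1.09 in +ND, and 1.45 in +NF and 0.998 in +NFD. Of 10 hair follicle markers, Lhx2, Gata3 and Hoxc13 were under 1 FPKM throughout. The counts of this list and of the lists that follow stand beside these shares of all genes at least 2-fold higher and lower. They were 5.88% and 5.29% in +ND against +N, and 3.72% and 2.69% in +NFD against +NF. For FGF10 they were 2.76% and 2.44% in +NF against +N, and 3.39% and 3.11% in +NFD against +ND. Of the follicle markers that could be compared, 2 were at least 2-fold higher and 1 lower of 5 in +ND against +N, and 4 higher and 1 lower of 7 in +NFD against +NF. With FGF10, 1 was higher and 0 lower of 6 in +NF against +N, and 2 higher and 0 lower of 7 in +NFD against +ND. Msx2, a homeobox gene of hair and tooth epithelium, was at 10.3, 30.0, 16.1 and 38.4 FPKM in +N, +ND, +NF and +NFD, and Dlx3, a homeobox gene of the same tissues, was at 8.95, 14.9, 6.03 and 20.4. Shh, a signal made in both hair and tooth epithelium, was under 1 FPKM except in +NFD, where it was at 8.74. Each of these 3 genes had its highest level in +NFD, whereas Krt75 and Krt42 had theirs in +ND. Tchh, which encodes the trichohyalin of the inner root sheath and of other hard epithelia, was at 23.8, 111, 21.6 and 55.8 FPKM, higher in the libraries with DBZ, as were Krt75 and Krt42. Sox9, a transcription factor of the outer root sheath and of the dental apical bud, had the opposite order, at 21.4, 1.45, 21.6 and 2.81 FPKM. The name companion layer keratin describes where Krt75 is known from. The follicle markers were thus partly present and partly under 1 FPKM, and several of those present are also made in dental epithelium.

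Of the 42 other keratins, 28 were under an FPKM of 1 in every library and 9 of these were listed at 0 in all. Among the 19 other epithelial keratins, those at least 2-fold higher and lower were 3 and 8 of 13 tested in +ND against +N, and 6 and 4 of 12 in +NFD against +NF. For FGF10 they were 2 and 5 of 10 in +NF against +N and 2 and 5 of 12 in +NFD against +ND. In both DBZ comparisons, Krt80, a keratin of differentiating epithelia, was higher, with log2 ratios of 2.75 and 2.93, and the simple epithelial keratins Krt8 and Krt18 were lower, with -3.92 and -3.65 for Krt8 and -2.83 and -1.92 for Krt18. Krt76, a keratin of the oral mucosa, was at 8.33 FPKM in +N and 17.4 in +ND, and 3.86 in +NF and 13.8 in +NFD, the same order as Krt42 except that +NFD was nearer to +ND.

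Genes that anchor basal cells were compared with the basal keratins. Of 15 genes for attachment and identity of basal cells, 2 were at least 2-fold higher and 0 lower in +ND against +N, and 0 higher and 2 lower in +NFD against +NF. With FGF10, 2 were higher and 0 lower in +NF against +N, and 1 was higher and 0 lower in +NFD against +ND. The hemidesmosome integrin Itgb4 was at 195 FPKM in +N and 234 in +ND, and 402 in +NF and 581 in +NFD, and Itga3, a laminin receptor chain, was at 71.1, 125, 159 and 149. Lama3, a laminin chain of the basement membrane, was at 132, 66.9, 147 and 63.7 FPKM. Its log2 ratio for DBZ was past the limit with FGF10, at -1.19, and inside it without, at -0.97. In +ND against +N, the genes past the limit were Dst, which encodes the dystonin that ties keratin to hemidesmosomes, and the desmosomal cadherin Dsc3, with log2 ratios of 1.03 and 1.03. The median of the list was 0.25 in +ND against +N, beside -0.81 for the basal keratins, which is the value of the scarce Krt15. In +NFD against +NF the 2 medians were alike, at -0.09 for the list and -0.08 for the basal keratins. For FGF10 they were 0.24 and -0.61 in +NF against +N, and -0.07 and 0.14 in +NFD against +ND.

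Proteins that link keratin filaments to desmosomes or bundle them were taken as a list of 9 genes. Of these, 2 were at least 2-fold higher and 1 lower in +ND against +N, 2 and 0 in +NFD against +NF, 0 and 1 in +NF against +N, and 0 and 1 in +NFD against +ND. Flg, which encodes the filament-aggregating filaggrin, was at 8.36 FPKM in +N and 58.1 in +ND, and 1.28 in +NF and 23.3 in +NFD, with Tchh as the other higher gene in both DBZ comparisons. Flg had the highest level in +ND and the lowest in +NF, as Krt16, Krt17 and Krt42 did. Evpl, which encodes envoplakin, was the lower gene in +ND against +N, with a log2 ratio of -1.17. In +NFD against +NF it was almost unchanged, at -0.06. The plakophilin Pkp1 was at 402, 277, 231 and 189 FPKM, in the order of Krt6a, and was past the limit in +NFD against +N at -1.09.

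The genes that are commonly induced with Krt6, Krt16 and Krt17 in activated keratinocytes did not move as a block. Of 18 tested, 5 were at least 2-fold higher and 4 lower in +ND against +N, 3 and 1 in +NFD against +NF, 1 and 3 in +NF against +N, and 0 and 6 in +NFD against +ND. Their medians were -0.49, -0.07, -0.34 and -0.30, all below those of all genes. The alarmin S100a8 was at 4.96 FPKM in +N and 28.9 in +ND, and 1.31 in +NF and 4.52 in +NFD, and its partner S100a9 was at 333, 141, 129 and 49.3. The partners thus differed in direction with DBZ, S100a8 being higher and S100a9 lower. The cytokine Tslp was at 2.37, 67.4, 2.03 and 6.81 FPKM, and the AP-1 subunit Fosl1 at 8.17, 20.2, 7.59 and 16.3. Both had the 2 libraries with DBZ on top, as did Krt17, Krt75 and Krt42. The neutrophil chemokines Cxcl1 and Cxcl2 were lower in +ND than in +N, with log2 ratios of -1.24 and -1.32, as was the urokinase receptor gene Plaur, at -1.02. The prostaglandin synthase gene Ptgs2 was at 2.17, 15.7, 7.31 and 6.60 FPKM. Among the EGF receptor ligands, Areg was at 21.4, 14.1, 9.78 and 6.22 FPKM, and with Hbegf it was lowest with both factors, as were Krt6a and Krt6b.

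The antioxidant genes of the Nrf2 pathway were included because Nrf2 is a known inducer of Krt6, Krt16 and Krt17 in the epidermis. Of 10 genes, 5 were at least 2-fold higher and 1 lower in +ND against +N, 2 and 0 in +NFD against +NF, 1 and 0 in +NF against +N, and 0 and 1 in +NFD against +ND. The medians were 0.87, 0.44, 0.06 and -0.20. The quinone reductase Nqo1 was at 100.1 FPKM in +N and 388 in +ND, and 100.8 in +NF and 242 in +NFD, and the heme oxygenase Hmox1 at 35.3, 74.1, 27.8 and 57.5. Both had the 2 libraries with DBZ on top, as Krt17 had. The other keratins named with Nrf2 had other orders. Krt6a and Krt6b were lower with DBZ in both backgrounds, and Krt16 was higher in +N than in +NFD. Whether Nrf2 had a part in the keratin levels was not tested. The subunits of the glutathione-synthesising ligase differed, with Gclm at 181, 478, 419 and 602 FPKM and Gclc at 43.6, 19.0, 47.2 and 24.5. Txnrd1, a thioredoxin reductase, and Slc7a11, a cystine transporter, were the other genes past the limit in +ND against +N, with log2 ratios of 1.02 and 2.24. N-acetylcysteine was in all media.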

How the data were processed

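RNA of DEOs from 4 media, 1 library each, was analysed. The authors made TruSeq RNA libraries, sequenced them on an Illumina HiSeq instrument, checked and trimmed reads (FastQC 0.11.9, Trim Galore 0.6.5), aligned them to GRCm38 (TopHat2 2.1.1, versions from the submitters' processing notes) and deposited FPKM values estimated with Cufflinks. Annotation release, strand setting and Cufflinks options are not given in the sources used here. A few very abundant transcripts lower all other FPKM values of a library, and they were not equally abundant in the 4 libraries. For example, 1 gene was at 116578 FPKM in +N and 34772 in +ND, and 83486 in +NF and 38852 in +NFD. The summed FPKM of all genes was 749264, 672304, 693408 and 680671 in the same order. How far this moved the ratios between libraries was not tested.

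The 47493 entries were summed by symbol (123 symbols had several). Ratios used a pseudocount of 1, a filter (the higher library had to reach 1 FPKM) and a 2-fold limit. With 1 library per medium, differences are described and not tested. Positions, lengths and sequences came from GENCODE M21 (GRCm38). Approximate fragment numbers came from the smallest steps of FPKM times length over 8367 genes with 1 transcript.

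The members and lists were chosen with earlier results of these data known. Named genes were the members, some but not all of the other keratins at an FPKM of at least 1, list genes past 2-fold that reached 10 FPKM in the comparison, follicle markers, overlapping entries and the 3 nearest profiles of Krt14, Krt6a and Krt17. A gene of a list is not reported here by name. Alternatives were pseudocounts, filters, scaling, entry choice and the genes in the sums. On simulated data for +ND against +N, 200 of 200 genes changed 4-fold were called among 12625, and 0 others. The changed genes were drawn from genes well above the filter, and only counting noise was simulated. No spread between cultures was included, so this checks the computation and not how reliable a 2-fold difference is here. Tools were Python 3.11.15 with pandas 2.3.3, numpy 2.4.6, matplotlib 3.10.9 and scipy 1.17.1.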

Additional observations from a re-analysis of the deposited data

How the results depend on the processing

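Of 264 recomputed log2 ratios of members (44 in all, each under 2 other pseudocounts, 2 other scalings, the highest entry per symbol and the overlapping entries added), 260 kept their side of the 2-fold limit and 0 changed sign. The 4 others were all Krt42, which passed the limit in +NFD against +NF at 1.15 and in +NFD against +ND at -1.004 with a pseudocount of 0.1, and at 1.22 and -1.03 with none. No member had several entries, so the highest entry per symbol could not alter a ratio. The overlapping entries could alter only Krt5, Krt6b and Krt75. The 260 thus include ratios that were fixed in advance. The filters were tried on the counts only. One at an FPKM of 5 removes the low members, so that 1 in place of 2 was counted higher in +NFD against +NF and 0 in place of 1 in +NFD against +N.

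The log2 stress-to-basal ratio depended on the genes summed, which shows in the order +N, +ND, +NF, +NFD. It was -1.15, -0.22, -1.71 and -1.36 as reported, and -2.24, -0.64, -2.26 and -1.55 as a mean of log2(FPKM + 1). Without Krt17 and Krt42 it was -1.32, -0.55, -2.02 and -1.84, without Krt14 0.40, 0.85, -0.53 and -0.37, and without Krt6a and Krt6b -3.08, -1.15, -3.65 and -2.26. Alternatives chosen after seeing the data gave -1.24, -0.34, -1.81 and -1.49 with the overlapping entries added and -1.39, -0.79, -1.82 and -1.77 without Krt16. The difference of +ND to +N passed 2-fold as a mean of logs (1.60) and without Krt6a and Krt6b (1.93), that of +NFD to +NF passed it without Krt6a and Krt6b (1.38), and that of +NFD to +ND no longer passed it as a mean of logs (-0.90) or without Krt16 (-0.98).

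Over all genes, a pseudocount of 0.1 gave 1212 higher genes in place of 774 in +ND against +N, 712 higher and 480 lower in place of 361 and 319 in +NF against +N, 818 higher in place of 450 in +NFD against +ND and 1271 in place of 782 in +NFD against +N, and no pseudocount gave 1222, 720, 829 and 1269 higher. A filter at an FPKM of 5 gave 307 in place of 497 in +NFD against +NF, 290 in place of 450 in +NFD against +ND and 488 in place of 782 in +NFD against +N.

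No paired analysis was possible because each medium had 1 library and no test was made, and no replicate was left out. Depth limits Krt15, Krt42 and Krt75, which rest on roughly 51 to 682 fragments. Shared sequence limits Krt6a, Krt6b and Krt16 most, and Krt5 and Krt14 less.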
